A study of Mus musculus with 9 samples.

Results

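Hepatic stellate cells and the matrix they lay down were followed through 10 genes in the livers of ob/ob mice given TUDCA, a taurine-conjugated bile acid, and in the livers of their controls. The genes were Col1a1, Col1a2, Col3a1, Acta2, Des, Pdgfrb, Dcn, Timp1, Tgfb1 and Spp1. They were taken by symbol, with no threshold on their signals, and a gene was represented by the mean of the probe sets annotated with exactly that 1 symbol. Of the 10 genes, 9 had such a probe set, among 19938 genes tested in all, and Spp1 was not analysed here.

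Liver RNA was hybridised to 9 Affymetrix Mouse Gene 1.0 ST arrays, 3 for each group. OB-TUDCA mice were ob/ob mice of strain B6.V-Lepob/J that received TUDCA at 500 mg/kg by gavage, 2 times a day for 3 weeks. OB-control mice were ob/ob mice of the same strain that received tap water on the same schedule, and N-control mice were wildtype C57BL/6J mice that also received tap water. All groups ate normal chow and were fasted for 8 h before the liver was taken. The mice were male and 6 weeks old at purchase. The arrays are labelled as biological replicates, and as the methods give 6 mice per group, the 3 arrays cover a part of each group. The ob/ob genotype removes leptin, the fat-derived satiety hormone, from every tissue from birth, so OB-TUDCA and OB-control mice shared that deficiency and N-control mice did not. OB-TUDCA and N-control mice differed in both genotype and TUDCA, and the parts of genotype and drug in a difference between those groups cannot be told apart. The Lep probe set gave log2 signals of 2.86, 3.07 and 2.94 in OB-TUDCA mice, 2.83, 3.18 and 2.94 in OB-control mice and 3.22, 2.96 and 2.76 in N-control mice. Leptin is made mainly in fat, and that signal in liver did not check the genotype.

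Stellate cells sit between hepatocytes and the sinusoidal endothelium and store vitamin A in the resting liver. After injury they turn into myofibroblasts: TGF-beta 1 drives the synthesis of fibrillar collagen, PDGF acting through its beta receptor drives proliferation, and TIMP proteins hold back the proteases that would clear the new matrix. Leptin itself is a profibrotic signal for stellate cells, and the leptin-deficient ob/ob mouse is known as a model of fatty liver with little scarring. The tissue was whole liver, in which hepatocytes supply most of the RNA, and more cells of a type and more RNA per cell cannot be told apart in any of the values below.

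The promoters of Tgfb1 and Col1a2 are shown, the 2 genes of the set with the largest differences between OB-TUDCA and N-control mice. Each run is the 250 bases before the annotated start on the plus strand of mouse build GRCm38.p6 in RefSeq, at chr7:25686752-25687001 for Tgfb1 and chr6:4505368-4505617 for Col1a2. Capitals mark matches on either strand to GGGCGG (a GC box), CCAAT or CAGACA (a motif bound by SMAD proteins).
Tgfb1: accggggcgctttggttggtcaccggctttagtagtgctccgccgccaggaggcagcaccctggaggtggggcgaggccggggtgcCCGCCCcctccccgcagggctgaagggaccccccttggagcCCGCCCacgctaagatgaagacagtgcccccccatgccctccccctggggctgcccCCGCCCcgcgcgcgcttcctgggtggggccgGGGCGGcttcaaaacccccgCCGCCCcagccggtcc
Col1a2: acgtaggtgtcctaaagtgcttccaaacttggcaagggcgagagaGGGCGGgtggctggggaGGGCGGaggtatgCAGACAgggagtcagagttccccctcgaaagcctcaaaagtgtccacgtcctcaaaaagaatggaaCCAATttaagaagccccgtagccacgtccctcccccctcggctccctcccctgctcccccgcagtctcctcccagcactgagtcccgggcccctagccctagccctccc
The Tgfb1 run held 5 GC boxes and neither of the other motifs. The Col1a2 run held 2 GC boxes, 1 CCAAT and 1 CAGACA. Over 32851 promoter windows of the same length, GGGCGG was present in 32.7%, CCAAT in 33.8% and CAGACA in 17.1%. TATAAA (12.4% of windows) and TGANTCA (6.75% of windows) had no match in either run.

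The arrays were close to each other, with Pearson correlations of 0.981 to 0.990 over all probe sets within a group and array medians of 4.50 to 4.58 on the log2 scale. N-control replicate 2 stood apart in 25 pancreatic acinar genes, whose mean log2 signal was 9.86 on that array and between 3.76 and 4.16 on the other 8, and 0 of these genes passed the test in any comparison (limma; 0 also at an unadjusted p under 0.05). The tests and the counts of the gene lists were therefore also computed without it.

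Of the 9 genes, 1 passed the test in any comparison. Tgfb1, which encodes the main profibrotic cytokine of the liver, was higher in OB-TUDCA mice than in N-control mice. The other 8, which include both chains of type I collagen and the stellate and myofibroblast markers Acta2, Des and Pdgfrb, did not pass in any of the 3 comparisons. The plot of the genes by array shows each value.

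The counts were read against those over all genes. In OB-TUDCA against OB-control mice, 0 of 9 genes passed the adjusted threshold of 0.05 (limma), against 0.301% of all genes. At an unadjusted p under 0.05, 2 of 9 (Dcn and Tgfb1) were higher and 0 lower, against 6.26% of all genes in the higher direction and 12% in either. The OB-TUDCA arrays lay wholly above the OB-control arrays for 1 of 9 (Dcn), against 7.26% of all genes. In OB-control against N-control mice, 0 of 9 passed, against 0.948% of all genes, and 0 of 9 reached an unadjusted p under 0.05, against 6.55% in the higher direction and 12.1% in either. The OB-control arrays lay wholly above the N-control arrays for 1 of 9 (Col1a1), against 8.49% of all genes. In OB-TUDCA against N-control mice, 1 of 9 passed, against 3.24% of all genes. At an unadjusted p under 0.05, 3 of 9 (Col1a1, Col1a2 and Tgfb1) were higher and 0 lower, against 10.4% of all genes in the higher direction and 18.5% in either, and the arrays of the same 3 genes did not overlap, against 11.8% of all genes. The 3 comparisons share arrays, so their counts are not independent of each other.

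**Figure D1:**
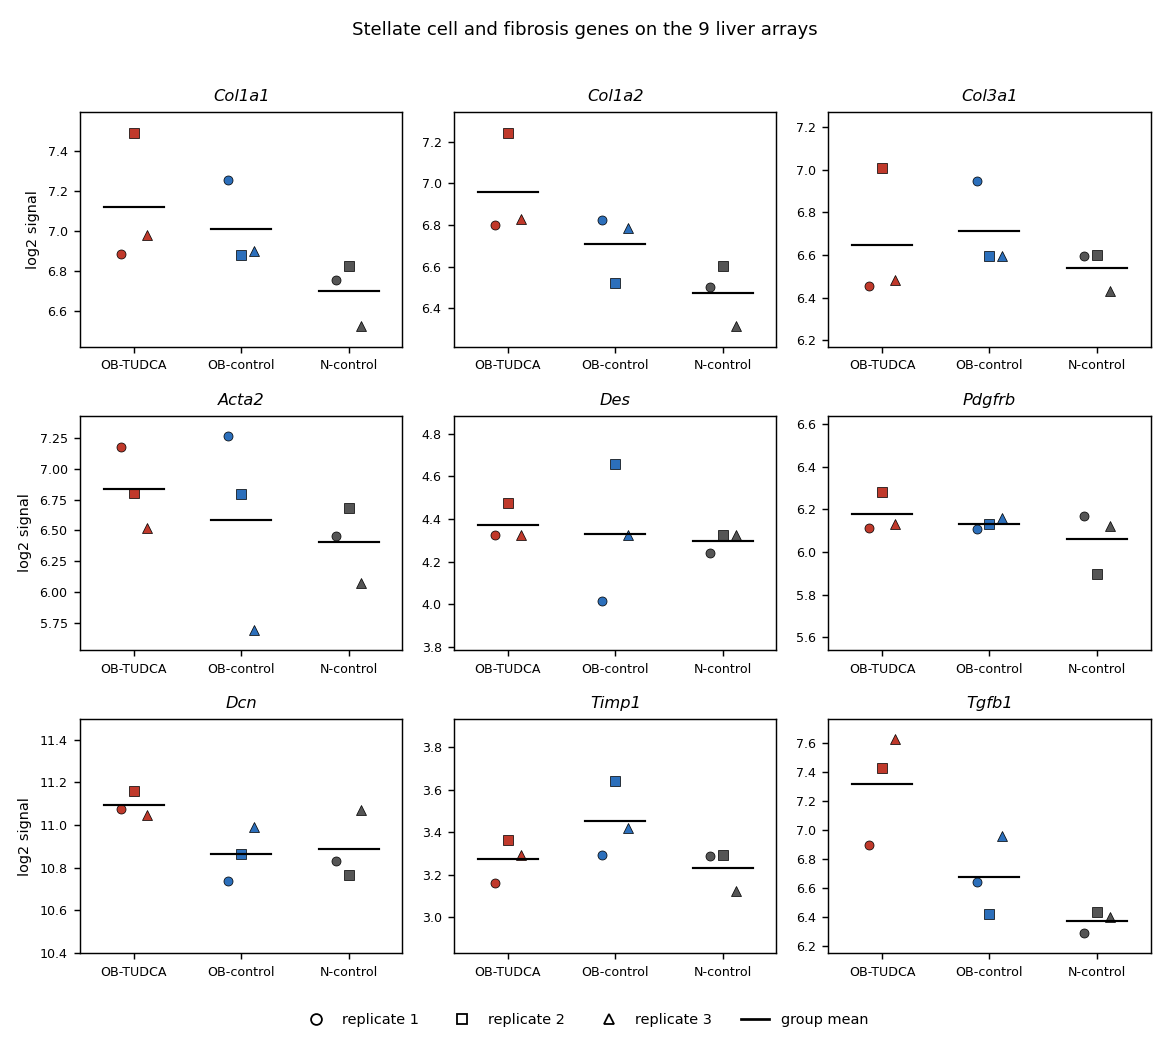
log2 signal of the 9 genes on each liver array, by group (3 arrays each; circles, squares and triangles are replicates 1, 2 and 3, and the bar is the group mean). Tgfb1 lies between 6.89 and 7.62 in OB-TUDCA mice, above all N-control arrays (6.29 to 6.44), while Acta2 spreads over 1.57 log2 units with every group overlapping.

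Tgfb1, the ligand of the set, had log2 signals of 6.89, 7.42 and 7.62 in OB-TUDCA mice, 6.64, 6.42 and 6.96 in OB-control mice and 6.29, 6.44 and 6.40 in N-control mice. All OB-TUDCA arrays were above all N-control arrays, whereas OB-TUDCA replicate 1 lay below OB-control replicate 3. The group means were 7.31 ± 0.38, 6.67 ± 0.27 and 6.38 ± 0.08 (SD, n = 3 each). Tgfb1 rose by 0.94 (SE 0.19) in OB-TUDCA against N-control mice, a 1.92-fold difference with a 95% interval of 0.51 to 1.36 on the log2 scale (limma, adjusted p = 0.0298). Only 1.65% of all genes differed by more in that comparison. The difference was 0.64 (SE 0.19) in OB-TUDCA against OB-control mice, 1.56-fold, with an unadjusted limma p of 0.00751 and an adjusted p of 0.196. It was 0.30 (SE 0.19) in OB-control against N-control mice (limma, adjusted p = 0.588). The call against N-control mice was lost when any 1 of 6 arrays was left out. The limma adjusted p was 0.125, 0.0833 and 0.0717 without N-control replicates 1, 2 and 3, 0.0599 when OB-control replicate 1 was left out, and 0.119 and 0.0839 when OB-TUDCA replicates 2 and 3 were, while the difference stayed between 0.78 and 1.15. Calls over all genes in that comparison, 269 higher and 377 lower with every array, also fell without each of these 6. They were fewest without OB-TUDCA replicate 2 (68 higher, 125 lower) and most without N-control replicate 3 (220 higher, 281 lower).

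The type I collagen chains Col1a1 and Col1a2, which form the bulk of scar matrix, both had their highest group mean in OB-TUDCA mice and their lowest in N-control mice. Col1a2 had log2 signals of 6.80, 7.24 and 6.83 in OB-TUDCA mice, 6.82, 6.52 and 6.78 in OB-control mice and 6.50, 6.60 and 6.31 in N-control mice. The OB-TUDCA arrays were apart from the N-control arrays and overlapped the OB-control arrays. Col1a2 differed by 0.48 (SE 0.14, 1.40-fold, 95% interval 0.17 to 0.80) in OB-TUDCA against N-control mice, with an unadjusted limma p of 0.00679 and an adjusted p of 0.105. Its difference was 0.25 (SE 0.14) in OB-TUDCA against OB-control mice and 0.24 (SE 0.14) in OB-control against N-control mice (limma, adjusted p = 0.538 and 0.558).

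Col1a1 had log2 signals of 6.89, 7.49 and 6.98 in OB-TUDCA mice, 7.25, 6.88 and 6.90 in OB-control mice and 6.75, 6.82 and 6.52 in N-control mice. Both ob/ob groups lay above all N-control arrays and overlapped each other. The difference was 0.42 (SE 0.17, 1.34-fold, 95% interval 0.04 to 0.80) in OB-TUDCA against N-control mice (limma, adjusted p = 0.228), 0.31 (SE 0.17) in OB-control against N-control mice (adjusted p = 0.518) and 0.11 (SE 0.17) in OB-TUDCA against OB-control mice (adjusted p = 0.851). Without OB-TUDCA replicate 2, the array with the highest Col1a1 signal, the last of these turned to -0.08.

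Col3a1, the chain of type III collagen, is laid down together with type I collagen. Its log2 signals were 6.45, 7.01 and 6.48 in OB-TUDCA mice, 6.95, 6.59 and 6.59 in OB-control mice and 6.59, 6.60 and 6.43 in N-control mice, and all 3 groups overlapped. The mean of OB-TUDCA mice was below that of OB-control mice by 0.06 (difference -0.06, SE 0.16, 95% interval -0.42 to 0.29; limma, adjusted p = 0.913). The high array of each ob/ob group was the same for Col3a1 as for Col1a1, replicate 2 in OB-TUDCA mice and replicate 1 in OB-control mice.

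Dcn encodes decorin, a small proteoglycan that binds collagen fibrils and can bind TGF-beta. Its log2 signals were 11.08, 11.16 and 11.05 in OB-TUDCA mice, 10.74, 10.86 and 10.99 in OB-control mice and 10.83, 10.77 and 11.07 in N-control mice. It was the only one of the 9 genes whose OB-TUDCA arrays did not overlap the OB-control arrays. The difference was 0.23 (SE 0.10, 95% interval 0.0041 to 0.46), with an unadjusted limma p of 0.0468 and an adjusted p of 0.402. Against N-control mice, Dcn differed by 0.21 in OB-TUDCA mice and by -0.03 in OB-control mice (SE 0.10 each; limma, adjusted p = 0.321 and 0.96).

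Acta2 encodes smooth muscle actin, present in vessel walls of every liver and in activated stellate cells. It had the widest range over the 9 arrays of any gene of the set. Its log2 signals were 7.18, 6.80 and 6.52 in OB-TUDCA mice, 7.27, 6.79 and 5.69 in OB-control mice and 6.46, 6.68 and 6.07 in N-control mice, so that OB-control mice held both its highest and its lowest array. The SD was 0.33 in OB-TUDCA mice, 0.81 in OB-control mice and 0.31 in N-control mice. The difference of OB-TUDCA against OB-control mice was 0.25 with a 95% interval of -0.55 to 1.05 (limma, adjusted p = 0.833), and against N-control mice it was 0.43 with an interval of -0.37 to 1.23 (adjusted p = 0.581). Without OB-control replicate 3 the first of these turned to -0.20. These intervals span both directions, so neither a rise nor a fall of Acta2 within them was excluded with 3 arrays a group.

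Des encodes desmin, an intermediate filament of rodent stellate cells and of muscle. Its log2 signals were 4.32, 4.47 and 4.32 in OB-TUDCA mice, 4.01, 4.66 and 4.32 in OB-control mice and 4.24, 4.32 and 4.32 in N-control mice. The deposited value was identical on 5 of the 9 arrays, and such ties between arrays occurred in 48.7% of all probe sets. The differences were 0.04, 0.04 and 0.08 in OB-TUDCA against OB-control, OB-control against N-control and OB-TUDCA against N-control mice (SE 0.14 each; limma, adjusted p = 0.939, 0.961 and 0.823).

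Pdgfrb, the receptor through which PDGF acts on stellate cells, is a defining marker of these cells. Its log2 signals were 6.11, 6.28 and 6.13 in OB-TUDCA mice, 6.11, 6.13 and 6.16 in OB-control mice and 6.17, 5.90 and 6.12 in N-control mice. The groups overlapped in every comparison. The difference was 0.04 in OB-TUDCA against OB-control mice and 0.11 in OB-TUDCA against N-control mice (SE 0.09 each; limma, adjusted p = 0.892 and 0.563).

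Timp1, an inhibitor of matrix metalloproteinases, was the gene of the set with its highest mean in OB-control mice besides Col3a1. Its log2 signals were 3.16, 3.36 and 3.29 in OB-TUDCA mice, 3.29, 3.64 and 3.42 in OB-control mice and 3.29, 3.29 and 3.12 in N-control mice. These were low signals, below the array medians of 4.50 to 4.58, and Timp1 stood at percentile 20.4 of all genes by mean signal. Its difference was -0.18 (SE 0.10, 95% interval -0.41 to 0.06) in OB-TUDCA against OB-control mice and 0.22 (SE 0.10) in OB-control against N-control mice (limma, adjusted p = 0.557 and 0.452). In OB-TUDCA against N-control mice it was 0.04 (adjusted p = 0.886).

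**Figure D2:**
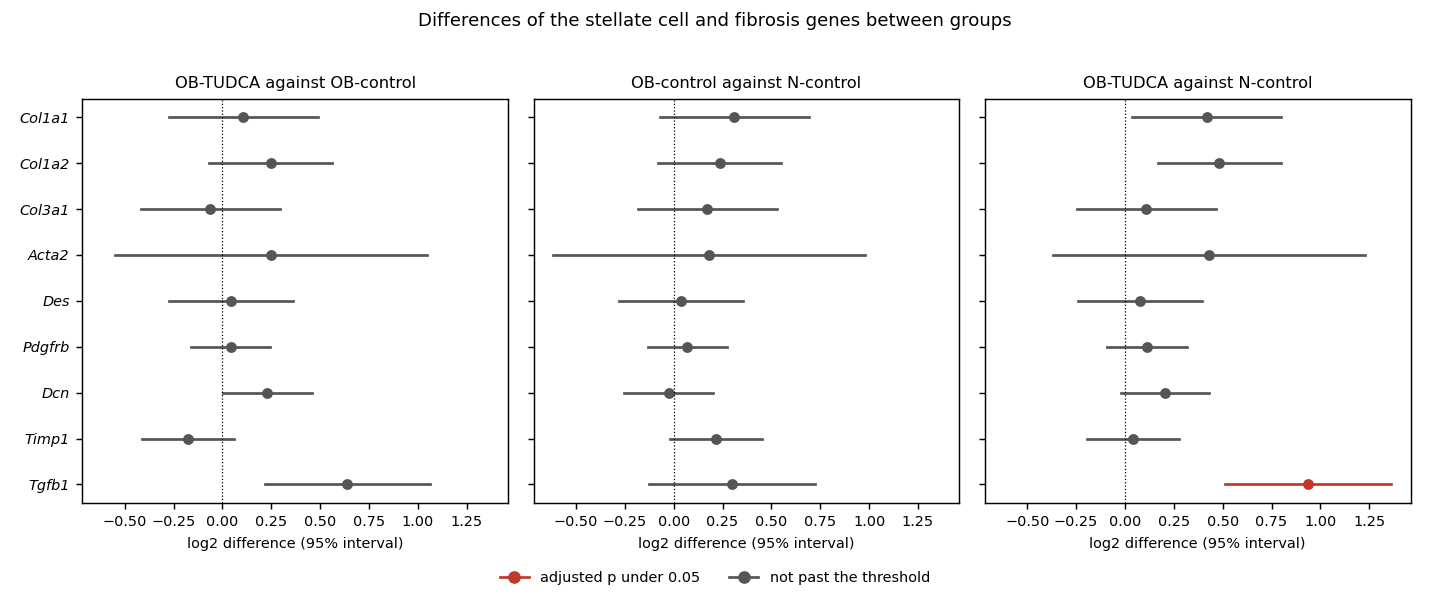
log2 differences of the 9 genes with 95% limma intervals in the 3 comparisons; red marks an adjusted p under the threshold of 0.05. The interval of Tgfb1 in OB-TUDCA against N-control mice (0.51 to 1.36) is the only red one, and that of Acta2 is the widest in every panel.

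With all 9 arrays, the direction of the means leaned one way. A higher mean in the group named first was found in 7 of 9 genes for OB-TUDCA against OB-control mice (53.6% of all genes), 8 of 9 for OB-control against N-control mice (57% of all genes; 7 of 9 without N-control replicate 2) and 9 of 9 for OB-TUDCA against N-control mice (59.6% of all genes). The median log2 difference of the 9 genes was 0.11, 0.18 and 0.21 in those comparisons, beside 0.01, 0.02 and 0.04 for all genes. The lean against OB-control mice depended on OB-TUDCA replicate 2. When that array was left out, the differences of Col1a1, Des and Pdgfrb turned to -0.0781, -0.0073 and -0.0102. Col3a1 and Timp1 stayed lower in OB-TUDCA mice, and the median became -0.0073. N-control mice had the lowest mean of the 3 groups for 8 of 9 genes, and 43.8% of all genes shared that position. These shares describe the set, and no test was made of it as a whole.

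The median SD of the 9 genes was 0.25 in OB-TUDCA mice, 0.20 in OB-control mice and 0.15 in N-control mice, beside 0.12, 0.12 and 0.11 over all genes, with single genes from 0.06 to 0.38 in OB-TUDCA mice, 0.03 to 0.81 in OB-control mice and 0.05 to 0.31 in N-control mice. OB-TUDCA replicate 2 held the highest value of its group for 7 of the 9 genes, and N-control replicate 2 for 6 of 9.

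The wider programmes around these genes were then counted, and the shares of all genes given above are the background for each list. Among inhibitors and proteases of the matrix (17 measured), Timp3, an inhibitor that is itself bound to the matrix, rose in OB-TUDCA mice against both other groups. Among other matrix and collagen-processing proteins (22 measured), Postn rose and Lum fell in OB-TUDCA against N-control mice. In OB-control against N-control mice, 0 genes of the matrix, stellate, contractile, TGF-beta, PDGF, protease and osteopontin receptor lists passed the adjusted test (limma). At an unadjusted p under 0.05, that comparison had 4 higher and 1 lower genes among the proteases and inhibitors, 2 higher and 1 lower among the other matrix proteins, 1 lower stellate marker and 1 higher osteopontin receptor. Over all genes, 12.1% reached that level in either direction.

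Timp3 had log2 signals of 7.63, 7.91 and 7.89 in OB-TUDCA mice, 6.94, 6.89 and 7.20 in OB-control mice and 6.67, 6.53 and 6.58 in N-control mice. None of the 3 groups overlapped another. It differed by 0.80 (SE 0.11) in OB-TUDCA against OB-control mice and by 1.22 (SE 0.11) in OB-TUDCA against N-control mice (limma, adjusted p = 0.0285 and 0.000976). The difference of 0.42 in OB-control against N-control mice did not pass (adjusted p = 0.14). The call against N-control mice held in every alternative tried. The call against OB-control mice did not hold without any 1 of N-control replicates 1, 2 and 3, OB-control replicates 1 and 2 or OB-TUDCA replicates 2 and 3, where the adjusted p lay between 0.0516 and 0.129.

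Postn encodes periostin, a matricellular protein of remodelling tissue, and Lum encodes lumican, a proteoglycan that organises collagen fibrils. Postn had log2 signals of 6.86, 7.26 and 6.58 in OB-TUDCA mice, 6.26, 6.27 and 6.62 in OB-control mice and 5.55, 5.57 and 5.69 in N-control mice, so that both ob/ob groups lay above all N-control arrays. It differed by 1.29 (SE 0.17) in OB-TUDCA against N-control mice (limma, adjusted p = 0.00548) and by 0.77 (SE 0.17) in OB-control against N-control mice (adjusted p = 0.0768). Lum went the other way, with 5.40, 5.15 and 4.96 in OB-TUDCA mice, 5.41, 4.94 and 5.44 in OB-control mice and 5.93, 5.86 and 5.77 in N-control mice. It fell by 0.68 in OB-TUDCA against N-control mice (SE 0.15; limma, adjusted p = 0.0441), and that call did not hold without N-control replicates 1, 2 or 3, OB-control replicates 1 or 3, or OB-TUDCA replicates 2 or 3 (adjusted p = 0.0526 to 0.162).

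Within the TGF-beta pathway (22 measured besides Tgfb1), 1 gene passed in OB-TUDCA against N-control mice and 0 in the other comparisons (limma). An unadjusted p under 0.05 was reached by 3 higher and 1 lower genes in OB-TUDCA against OB-control mice and by 3 lower genes in OB-control against N-control mice. Over all genes, 12% and 12.1% reached that level in either direction in those comparisons. Smad2, which encodes a transcription factor that TGF-beta receptors phosphorylate, had log2 signals of 6.65, 6.55 and 6.71 in OB-TUDCA mice, 7.21, 7.0 and 7.17 in OB-control mice and 7.11, 7.03 and 7.04 in N-control mice. All OB-TUDCA arrays lay below both other groups. Smad2 fell by 0.43 in OB-TUDCA against N-control mice (SE 0.08; limma, adjusted p = 0.0253), and its difference was -0.49 against OB-control mice (adjusted p = 0.0529). The call did not hold without N-control replicates 1, 2 or 3 or OB-TUDCA replicates 2 or 3 (adjusted p = 0.0508 to 0.114). In OB-TUDCA against OB-control mice the means of 17 of the 22 genes were higher and those of 5 lower, with a median difference of 0.10. Over all genes, 53.6% had a higher mean and the median difference was 0.01.

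**Figure D3:**
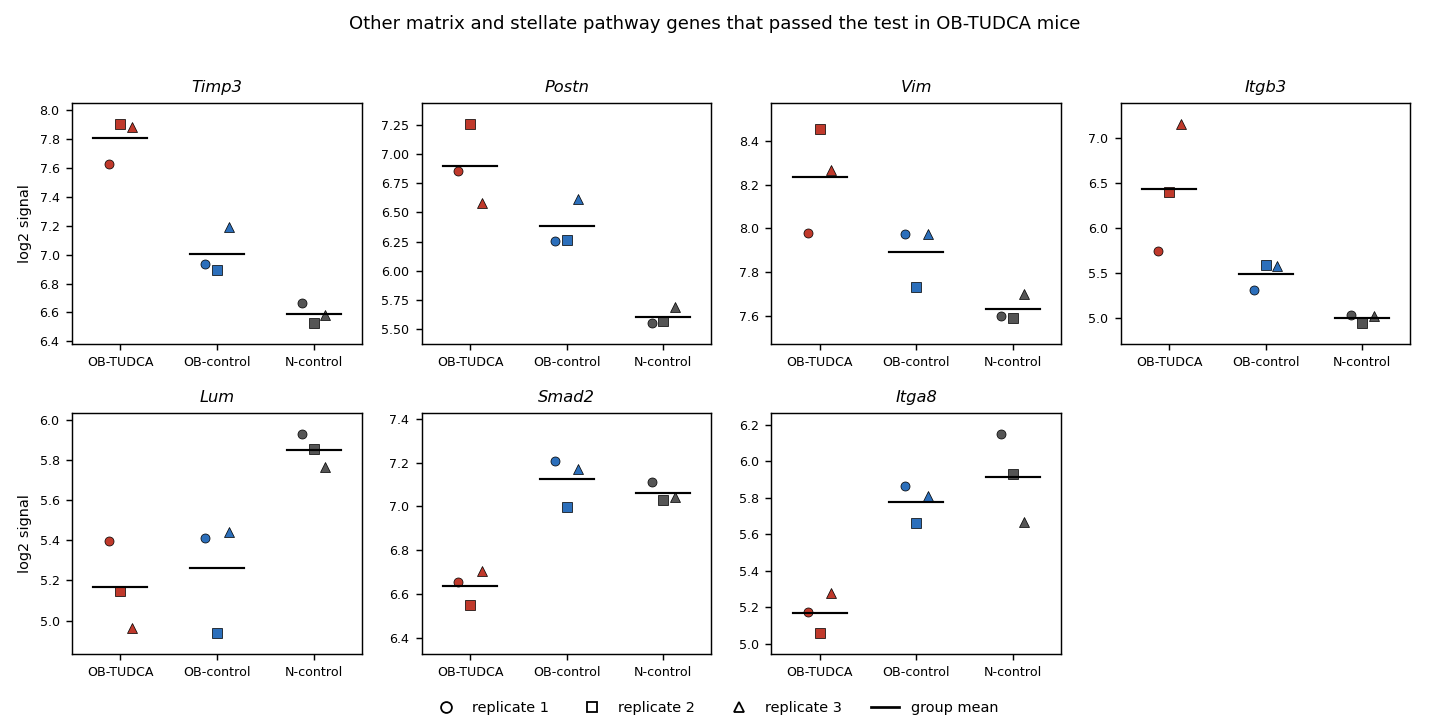
log2 signal of the other matrix, stellate and receptor genes that passed the test in OB-TUDCA against N-control mice, on each array by group (symbols are replicates 1 to 3, bars are group means). Timp3 separates all 3 groups, from 7.63 to 7.91 in OB-TUDCA mice against 6.89 to 7.20 in OB-control mice, and Smad2 and Itga8 are low in OB-TUDCA mice only.

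The collagens outside the set (13 measured), which include the fibrillar chains Col5a1 and Col5a2 and network, microfibrillar and basement membrane collagens, passed in 0 cases in each comparison (limma). At an unadjusted p under 0.05, 1, 0 and 2 of the 13 were higher in OB-TUDCA against OB-control, OB-control against N-control and OB-TUDCA against N-control mice, and 0 were lower. Col18a1, Col14a1 and Col4a1, the 3 with the highest mean signal, averaged 8.68, 8.39 and 6.35 in OB-TUDCA mice, 8.86, 8.46 and 6.03 in OB-control mice and 8.83, 8.27 and 5.96 in N-control mice. Col4a1, a basement membrane chain, had a difference of 0.40 in OB-TUDCA against N-control mice (SE 0.14; limma, adjusted p = 0.167).

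Of the PDGF ligands and receptors besides Pdgfrb (6 measured), 0 passed in any comparison (limma). Pdgfa, Pdgfra and Pdgfc differed by 0.13, 0.33 and -0.28 in OB-TUDCA against OB-control mice (adjusted p = 0.837, 0.395 and 0.705). At an unadjusted p under 0.05, 1 of the 6 was higher in OB-TUDCA against OB-control mice and 0 were lower, 0 moved in OB-control against N-control mice, and 1 was higher and 1 lower in OB-TUDCA against N-control mice.

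Although Spp1, which encodes osteopontin, was not analysed here, 9 genes of its receptors were measured. The integrin subunits Itgb3 and Itga8 passed in OB-TUDCA against N-control mice, in opposite directions. Itgb3 had log2 signals of 5.74, 6.39 and 7.16 in OB-TUDCA mice, 5.30, 5.59 and 5.58 in OB-control mice and 5.03, 4.94 and 5.02 in N-control mice, with no overlap between groups and an SD of 0.71 in OB-TUDCA mice. It rose by 1.43 in OB-TUDCA against N-control mice (SE 0.28; limma, adjusted p = 0.028). Itga8, which stellate cells express, had log2 signals of 5.17, 5.06 and 5.28 in OB-TUDCA mice, 5.86, 5.66 and 5.81 in OB-control mice and 6.15, 5.93 and 5.67 in N-control mice. It fell by 0.75 in OB-TUDCA against N-control mice (SE 0.12; limma, adjusted p = 0.0148). Neither call held without N-control replicates 1 or 2 or OB-TUDCA replicate 2, and that of Itgb3 was also lost without N-control replicate 3 or OB-control replicate 1 (adjusted p = 0.0503 to 0.105).

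Markers of quiescent and general stellate cells (17 measured) went in both directions. Those at an unadjusted p under 0.05 were 4 higher and 1 lower in OB-TUDCA against OB-control mice, 0 higher and 1 lower in OB-control against N-control mice, and 2 higher and 3 lower in OB-TUDCA against N-control mice. Over all genes, 12%, 12.1% and 18.5% reached that level in either direction in those comparisons. The mean log2 signal of the list was 6.21 to 6.28 in OB-TUDCA mice, 6.10 to 6.19 in OB-control mice and 6.14 to 6.21 in N-control mice, so that the OB-TUDCA arrays lay above the OB-control arrays and overlapped the N-control arrays. Lrat, the enzyme that esterifies vitamin A and a defining stellate marker, had log2 signals of 7.07, 7.17 and 7.18 in OB-TUDCA mice, 6.95, 6.87 and 6.93 in OB-control mice and 7.02, 6.86 and 6.66 in N-control mice. Lrat was named after its values were seen, did not pass the test in any comparison and does not stand for the list. By group mean, 12 of the 17 markers were higher and 5 lower in OB-TUDCA against OB-control mice, where 53.6% of all genes were higher. The split against N-control mice was 10 higher and 7 lower, where 59.6% of all genes were higher. Vim, an intermediate filament of mesenchymal cells, was the 1 gene of this list that passed. It had log2 signals of 7.98, 8.46 and 8.26 in OB-TUDCA mice, 7.97, 7.73 and 7.97 in OB-control mice and 7.60, 7.59 and 7.70 in N-control mice. Vim rose by 0.60 in OB-TUDCA against N-control mice (SE 0.12; limma, adjusted p = 0.0321). The call did not hold without N-control replicates 1, 2 or 3, OB-control replicate 1, or OB-TUDCA replicates 2 or 3 (adjusted p = 0.058 to 0.127).

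Contractile and smooth muscle genes (13 measured) passed in 0 cases in each comparison (limma), and an unadjusted p under 0.05 was reached by 1 higher and 1 lower gene in OB-TUDCA against N-control mice and by 0 genes in the other comparisons. Cald1, Mylk and Tpm1, the 3 of highest mean signal, differed by -0.19, -0.28 and 0.35 in OB-TUDCA against OB-control mice (adjusted p = 0.661, 0.488 and 0.444). The list mean on the OB-control arrays was 5.48, 5.36 and 5.17, in the same order as Acta2 on those arrays. On the OB-TUDCA arrays it was 5.40, 5.28 and 5.31, and on the N-control arrays 5.28, 5.31 and 5.22. What part the amount of vessel wall in each liver piece had in the spread of Acta2 was not tested.

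Macrophages are themselves a source of TGF-beta 1. The mean of their markers followed the order of Tgfb1 across the OB-TUDCA and the N-control arrays but not across the OB-control arrays. The mean of 16 Kupffer cell and macrophage markers was 5.98, 6.45 and 6.69 in OB-TUDCA mice, 5.84, 6.02 and 6.12 in OB-control mice and 5.87, 6.06 and 5.99 in N-control mice. The OB-TUDCA array with the lowest list mean, replicate 1, also had the lowest Tgfb1 signal of that group, and replicate 3 had the highest of both. The list median was 5.85, 6.81 and 6.33 on OB-TUDCA replicates 1, 2 and 3. In that group the order of Tgfb1 was therefore followed by the mean and not by the median. Set against OB-control mice, OB-TUDCA mice had the higher mean for 14 of the 16 markers, where 53.6% of all genes had a higher mean. Of these 14, 4 reached an unadjusted p under 0.05 (limma), against 6.26% of all genes in the higher direction, and 0 passed the adjusted threshold. The median difference was 0.29. Vsig4, Lyz2 and Clec4f, the 3 of highest mean signal, differed by 0.29, 0.19 and -0.08 (adjusted p = 0.563, 0.861 and 0.84). The part of macrophages in the Tgfb1 difference was not tested.

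Of 12 sinusoidal endothelial markers, 1 rose and 4 fell in OB-TUDCA against N-control mice (limma), where 3.24% of all genes passed, and 0 passed in the other comparisons. At an unadjusted p under 0.05, 3 were higher and 5 lower in OB-TUDCA against OB-control mice, against 12% of all genes in either direction. In OB-control against N-control mice 4 were lower at that level, against 12.1% of all genes in either direction. Lyve1, a hyaluronan receptor, rose by 2.44 in OB-TUDCA against N-control mice (adjusted p = 0.011). The VEGF receptor Kdr fell by 1.17, the Fc receptor Fcgr2b by 0.81, the mannose receptor Mrc1 by 0.68 and Oit3 by 0.65 (adjusted p = 0.0218, 0.0341, 0.00641 and 0.00842). Without N-control replicate 2, 1 was higher and 2 were lower. The calls of Mrc1 and Oit3 held with each array left out. That of Lyve1 was lost without OB-TUDCA replicate 2 (adjusted p = 0.0578), that of Kdr without any N-control array or OB-TUDCA replicates 2 or 3 (up to 0.0999) and that of Fcgr2b without any array but OB-TUDCA replicate 1 (up to 0.134). Of 9 hepatocyte markers, 7 had a lower mean in OB-TUDCA against N-control mice, where 59.6% of all genes had a higher mean. All arrays lay below for 4 of these 7. The share of all genes lying below was not counted, so whether that number is unusual cannot be told. Of the 7, 0 passed the test (limma) and 1 reached an unadjusted p under 0.05, against 18.5% of all genes in either direction. In OB-control against N-control mice 8 of 9 were lower, where 57% of all genes had a higher mean. Of these 8, 4 reached an unadjusted p under 0.05, against 12.1% of all genes in either direction, and 0 passed the adjusted threshold. Hnf4a, a hepatocyte transcription factor, passed in the other direction, higher by 0.58 in OB-TUDCA against N-control mice (adjusted p = 0.0451; lost with the replicate number as a block, 0.0556, and without N-control replicates 1 or 2, OB-control replicates 1 or 3 or any OB-TUDCA array, up to 0.157). Alb (albumin) had log2 signals between 13.32 and 13.51 on all arrays.

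Portal fibroblast and mesothelial markers (13 measured), cholangiocyte markers (10 measured) and skeletal muscle and adipose markers (9 measured) passed in 0 cases in each comparison (limma). At an unadjusted p under 0.05, 1, 0 and 3 of the portal fibroblast markers were higher in OB-TUDCA against OB-control, OB-control against N-control and OB-TUDCA against N-control mice. Of the cholangiocyte markers, 1 was lower in OB-TUDCA against OB-control mice and 1 higher in OB-control against N-control mice at that level, and of the muscle and adipose markers 1 was higher in each ob/ob group against N-control mice. Gas6, Fbln2 and Entpd2 differed by 0.37, 0.09 and -0.01 in OB-TUDCA against OB-control mice. The cholangiocyte genes Sox9, Krt19 and Pkhd1 differed by 0.51, 0.28 and -0.47 (adjusted p = 0.443, 0.808 and 0.33).

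**Figure D4:**
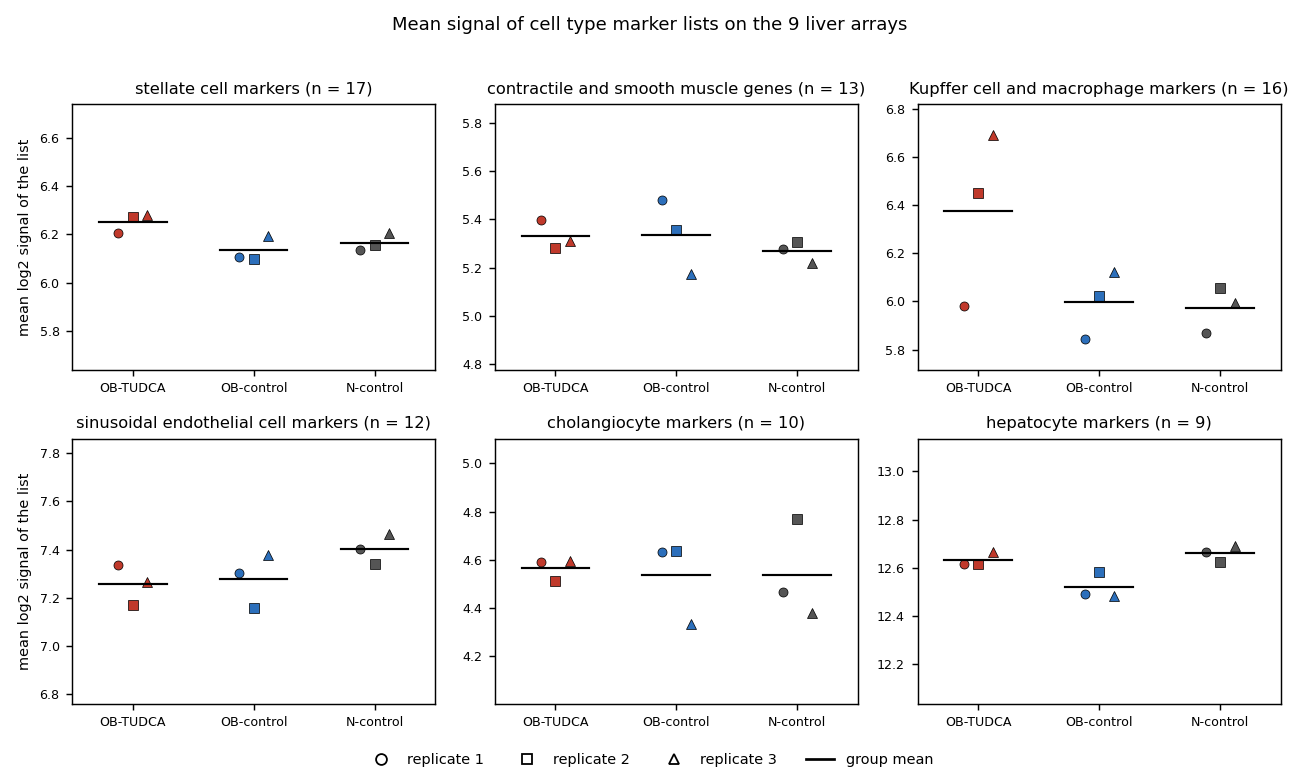
Mean log2 signal of 6 marker lists on each array, by group (n is the number of genes averaged; symbols are replicates 1 to 3, bars are group means). The mean of the stellate cell markers, which average genes that went in both directions, lies between 6.10 and 6.28 on all arrays, and that of the macrophage markers reaches 6.69 on OB-TUDCA replicate 3.

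The genes whose pattern over the 9 arrays was most like that of Tgfb1, Acta2 and Col1a1, the 3 genes of the set with the widest range, were found by Pearson's r among all genes. The 9 arrays include the 3 groups, so group differences enter each r. For Tgfb1 they were Smox, a spermine oxidase (r = 0.99, Spearman's rho = 1), Pnpla2, a triglyceride lipase (r = 0.98, rho = 0.88), and Gpnmb, which is also on the macrophage list (r = 0.98, rho = 0.88). Smox had log2 signals of 5.51, 6.00 and 6.34 in OB-TUDCA mice, 5.38, 5.22 and 5.61 in OB-control mice and 5.03, 5.26 and 5.14 in N-control mice, the same order of arrays as Tgfb1. For Acta2 they were Upk3a, Prss58 and Tbx22 (r = 0.97 each), and for Col1a1 Plpp6, Spry1 and Agr3 (r = 0.97, 0.96 and 0.96). Several of these varied little, by 0.37 log2 units for Prss58 and 0.08 for Agr3 over the 9 arrays, against 1.57 for Acta2 and 0.97 for Col1a1.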

How the data were processed

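The deposited values were log2 signals per probe set, which the authors made with RMA in Affymetrix Expression Console (version not given in the sources used here). RMA corrects background, quantile normalizes the arrays to each other and summarises probes by median polish, which can give identical values on several arrays. Of 35556 probe sets, 21789 carried 1 gene symbol, 1621 several and 12146 none here. The probe sets of 1 symbol were averaged per gene, giving 19938 genes without a filter on signal. The number of arrays limits the precision.

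All 9 arrays entered 1 limma fit (limma 3.58.1, R 4.3.3) with 3 group means. Tests were two-sided, and p-values were adjusted over all genes by Benjamini-Hochberg with a threshold of 0.05. The fit had 6 residual degrees of freedom and was tested on simulated data. With 3 arrays against 3, an exact permutation test could not go below p = 0.1 and was not used. Values after ± are SDs.

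The 10 genes and 15 further gene lists (227 entries, 213 measured) were chosen with earlier results of these data known. Each gene of the set was named. Other lists name up to 4 genes past the threshold, or up to 3 of highest mean signal where none passed. For the 3 genes of the set with the widest range, the 3 most alike by Pearson's r are named. Some other genes (Lep, Lrat, Alb and Oit3) were named after their values were seen. Promoter sequences came from RefSeq (GRCm38.p6).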

Additional observations from a re-analysis of the deposited data

How the results depend on the processing

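The number of genes of the set past the threshold in OB-TUDCA against N-control mice was 1, and it was 0 when the fit held just the 2 groups in question and 0 with the mean of the pancreatic acinar genes as a covariate (Tgfb1, limma adjusted p = 0.0683 and 0.0768, with differences of 0.94 and 0.97). Over all genes, 127 were called higher and 218 lower with just the 2 groups and 118 higher and 203 lower with the covariate, against 269 and 377 as reported. In the same 2 settings and comparison, Lum (limma adjusted p = 0.0512 and 0.106), Vim (0.079 and 0.0931), Itgb3 (0.0967 and 0.0818) and Itga8 (0.0521 and 0.0502) lost their calls. Smad2 lost its call with the covariate (0.066) but not with just the 2 groups (0.0458), while Postn kept its call in both (0.0249 and 0.0262). In the same 2 settings the adjusted p of Timp3 in OB-TUDCA against OB-control mice was 0.125 and 0.0601. In each of these settings, 0 of all 19938 genes were called higher and 0 lower in that comparison. The number of genes of the set past the threshold in OB-TUDCA against N-control mice ranged from 0 to 1 when each array was left out in turn. In the other comparisons that number was 0 throughout. The same replicate numbers in the groups did not pair the arrays, whose deviations from the group means correlated at -0.075 to 0.209. With the replicate number as a block, the adjusted p of Tgfb1 in OB-TUDCA against N-control mice was 0.0216 and no gene of the set changed its call, while Hnf4a lost its call (0.0556). The median difference of the set, with arrays left out, ranged from -0.01 to 0.18, 0.12 to 0.25 and 0.14 to 0.26 in OB-TUDCA against OB-control, OB-control against N-control and OB-TUDCA against N-control mice. Differences that were not called changed sign in some settings, and the cause was not tested. In OB-control against N-control mice, Des was -0.031 with array weights and Pdgfrb -0.011 with the acinar covariate. With arrays left out, OB-TUDCA against OB-control mice gave -0.24 to 0.0555 for Col3a1, -0.12 to 0.21 for Des, -0.20 to 0.59 for Acta2, -0.0781 to 0.23 for Col1a1 and -0.0102 to 0.0752 for Pdgfrb. OB-control against N-control mice gave -0.0136 to 0.12 for Pdgfrb, -0.0886 to 0.0643 for Dcn, -0.16 to 0.63 for Acta2 and -0.13 to 0.19 for Des. OB-TUDCA against N-control mice gave -0.0166 to 0.0946 for Timp1 and -0.0719 to 0.21 for Col3a1. Without N-control replicate 2, chosen after seeing the data for the gene lists, Tgfb1, Vim, Lum, Smad2, Itgb3 and Itga8 lost their calls in OB-TUDCA against N-control mice, while Timp3 and Postn kept theirs there. Precision was limited by 3 arrays a group.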
